A study of Rattus norvegicus with 6 samples.

Results

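Interleukins, chemokines, the ligands of the TNF superfamily and the receptors of the interleukins and chemokines were followed in the jejunum of rats. A gene belonged to this set when the RefSeq accession of its array probe carried a rat symbol that starts with Ccl, Ccr, Cxcl, Cxcr or Tnfsf, or with Il and a number, or that is Tnf, Lta, Ltb or Ifng. In all, 114 of the 13837 gene symbols named on the array met this rule, and each was read from its brightest probe. They were sorted by name into 28 chemokine ligands, 17 chemokine receptors, 28 interleukins (with Ifng), 30 interleukin receptors and accessory proteins, and 11 TNF superfamily ligands.

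The study compared 2 groups of male Sprague-Dawley rats, 6 weeks old and weighing 200 ± 20 g, to learn how heat and shaking act on the small intestine. Both groups were housed at 25°C and 60% humidity, and the control group stayed there. Rats of the S3d group were in addition exposed, on 3 days and for 2 h each time, to 35°C together with a vibration of 0.1 g. Each group has 3 arrays, and per the labels each array carried jejunal RNA pooled from 3 of the 10 rats of a group. Whether pools of a group shared rats is not given, so p-values measure the spread between these pools.

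Cytokines are small secreted or membrane-bound proteins by which immune cells and epithelium signal to each other. Chemokines bind G protein-coupled receptors and draw leukocytes along a gradient. In the small intestine the epithelium makes Ccl25, which guides T cells and plasma cells that carry Ccr9, and the epithelium over Peyer's patches makes Ccl20, which draws cells that carry Ccr6. Interleukins signal mostly through JAK kinases and STAT factors, whereas Tnf and the interleukin 1 family lead to the transcription factor NF-kappaB, which in turn drives many chemokine genes. Il18, Il15 and Il33 are stored or shown by epithelial and stromal cells and act on lymphocytes and mast cells.

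The labels of the arrays carry a conflict that bears on every direction below. The columns of the normalized table that the authors also deposited match scanner files with the opposite label: each column had a rank correlation of 1.00 with the file of the same replicate number in the opposite group. No sample was moved, and "control arrays" and "S3d arrays" mean the scanner files so labelled. The directions of called members given here are therefore opposite to those of the study's normalized table. The study's paper gives no fold change for a member. In that table, read by its labels, 84 of the 93 tested members had the opposite sign, and the other 9, none of them called here, had the same one. The median member stood there at 0.16 (log2, S3d minus control) and not at -0.02. Which of these labels is right was not tested, and the RT-PCR that the study ran on other genes was not used here. All control arrays lay on 1 slide and all S3d arrays on another, scanned at another time, so slide, scan and group cannot be told apart. The 75th percentile of the signal was 415 to 430 on the control arrays and 1458 to 1558 on the S3d arrays. Between 69.1% and 73.7% of spots were well above background on the control arrays, and between 77.5% and 81.5% on the S3d arrays. Levels are given as log2 of the signal relative to this 75th percentile, so 0 is that percentile and 1 unit is a doubling.

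The tissue label was met by its markers: all 10 matched genes of jejunal epithelium were well above background on every array. Most cytokine genes were measurable. Of the 114 members, 80 (70.2%) were well above background on all control arrays and 89 (78.1%) on all S3d arrays, against 67.8% and 74.7% of all probes. A further 15 members (13.2%, against 16.1% of all probes) were not well above background on any of the 6 arrays. These were Il6, Il2, Il5, Il9, Il11, Il12b, Il23a, Il1f10, Lta, Cxcl6 and the receptors Il12rb2, Il13ra2, Il1rapl1, Il1rapl2 and Il5ra, so many of the textbook T cell and inflammatory cytokines gave no readable signal in whole jejunum. Il6, which drives the acute phase response, lay between -7.88 and -7.76 on the control arrays and between -7.24 and -6.89 on the S3d arrays and has no fold change here.

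The cytokine set moved in both directions. A gene counts as called when its adjusted p was under 0.05 (limma, Benjamini-Hochberg adjustment over all 31367 probes tested). Of the 93 members bright enough to be tested, 52 (55.9%) were called, against 74% of all probes tested. Of these, 24 were higher on the S3d arrays (39.5% of all probes were) and 28 were lower (34.5% of all probes were). With quantile normalization in place of the 75th percentile the split was 22 higher and 39 lower (35% and 35.6% of all probes were). Groups did not overlap for 59 members (63.4%), against 78.9% of all probes. The median log2 fold change of the members was -0.02, beside 0.08 for all probes tested.

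Of the 76 members well above background on all 6 arrays, 26 were lower and 13 higher on the S3d arrays, with a median of -0.10. Among all probes of that kind 72.6% were called, 38% lower and 34.5% higher, with a median of -0.02. The 13 members that were well above background on all S3d arrays but not on all control arrays had 10 rises and no fall, and the 3577 probes of that kind had a median of 1.65 with 83.4% called higher. They include Tnf, Il4, Il13, Il3 and Ccr7, and such a probe passed because it was bright on the S3d arrays, so their direction was set by the filter and their count supports nothing. The opposite kind held 4 members, Il17a, Ccr3, Ccr4 and Il1rl1, of which Ccr4 and Il1rl1 were read on S3d arrays 1 and 3, since the spot on array 2 was an outlier. The 740 probes of this kind had a median of -1.18 with 72% called lower, so the falls of Il17a and Ccr3 were likewise set by the filter. Fewer cells of a type and less RNA per cell cannot be told apart in RNA of whole jejunum.

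**Figure D1:**
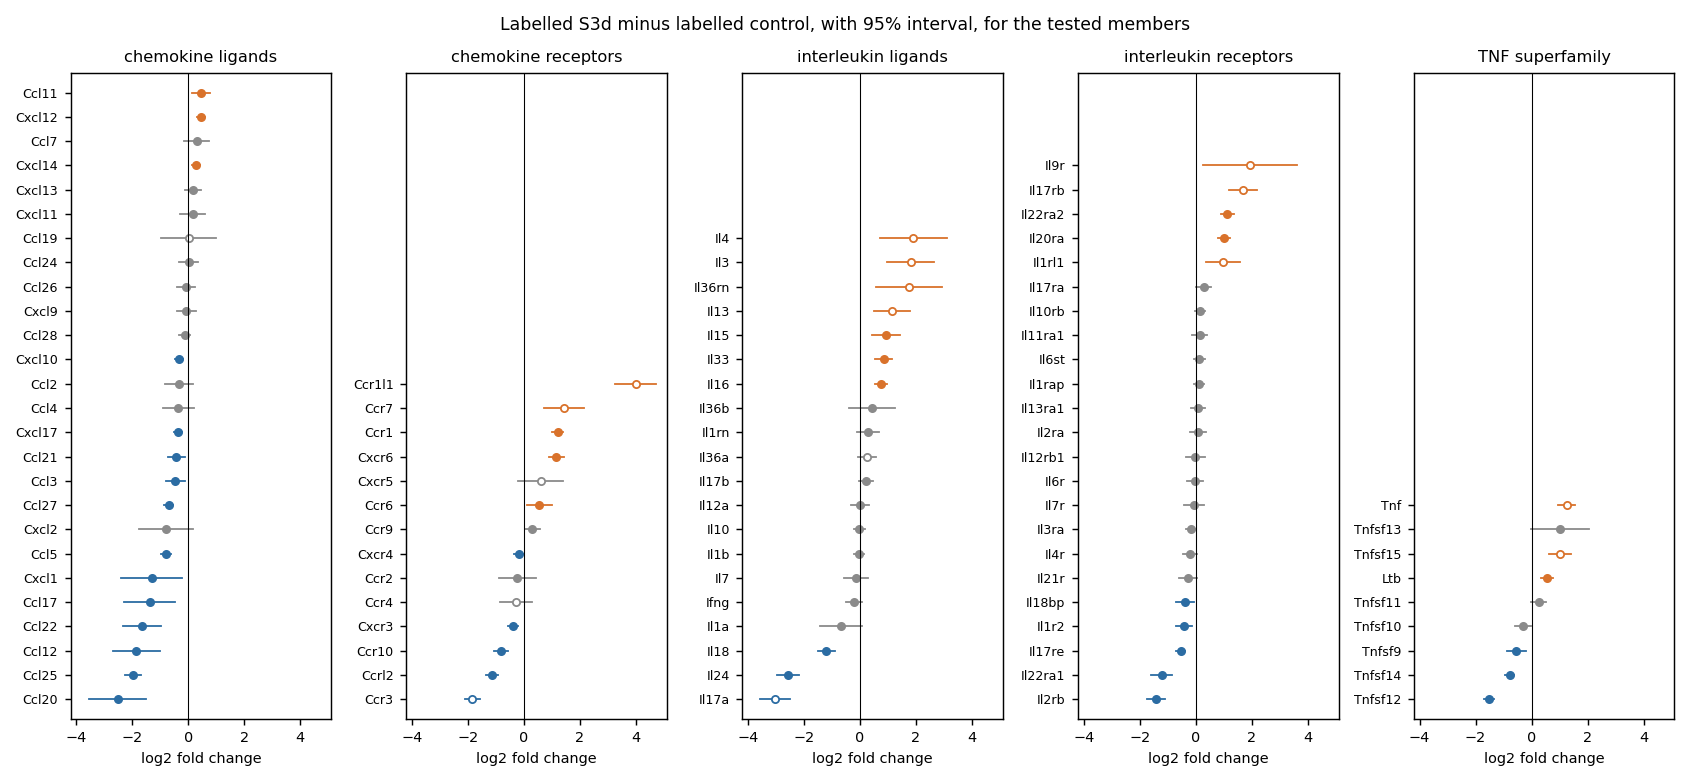
Log2 fold change (arrays labelled S3d minus arrays labelled control) of 92 of the 93 tested members with its 95% interval, in 5 panels by role. Orange was called higher, blue called lower and grey not called, and open circles mark members that were not well above background on all 6 arrays; the chemokine ligand panel leans to the left, with 12 falls and 3 rises.

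Chemokine ligands were the role with the most one-sided change. Of 26 tested, 12 were lower and 3 higher on the S3d arrays (34.5% and 39.5% of all probes tested were), and the median was -0.35. All 8 that were called with a fold change of at least 1.5 were lower (52.5% of all probes were called at that size). The epithelial chemokines Ccl20 and Ccl25 were among the largest falls. Ccl20 stood at 3.47, 2.87 and 2.84 on the control arrays and at -0.21, 0.42 and 1.39 on the S3d arrays. Every S3d array was thus below every control array, although the S3d arrays themselves spread widely. The difference was -2.53 ± 0.42 (SE), a 5.76-fold lower level (adjusted p = 0.00210). Ccl25 stood at 4.34, 4.35 and 4.01 on the control arrays and at 2.27, 2.18 and 2.32 on the S3d arrays. The groups lay far apart, and the difference was -1.98 ± 0.11 (3.94-fold lower, adjusted p = 3.00e-05).

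The letters that NF-kappaB prefers lay in the promoters of 8 of 23 chemokine ligands (34.8%). A RefSeq promoter (assembly GRCr8) was at hand for 87 of the 114 members, and the 250 bases before the annotated start were searched on both strands. The consensus was found in 17 of the 87 (19.5%) and in 6.41% of all 27457 promoters, and in 3 of 8 TNF superfamily genes. Of the members called lower, 6 of 20 with a promoter held it, and of those called higher 1 of 17 did, which was Ltb. TATAAA was found in 26.4% of the members and 13.1% of all promoters and the STAT letters TTCNNNGAA in 10.3% and 7.52%. A match is a run of letters and not a bound site, overlapping matches of the strands were capitalized as 1 run, and these shares have no test. The windows here show it for 6 chemokine ligands and, as the gene called higher, for Ltb, with the matched bases in capitals and up to 25 bases on either side, written 5′ to 3′ along the gene. Ccl20 lies at chr9:91837045-91837104 (plus strand), Cxcl1 at chr14:17479370-17479430 (minus strand), Cxcl2 at chr14:17467294-17467354 (minus strand), Cxcl6 at chr14:17596470-17596530 (minus strand), Cxcl10 at chr14:15988854-15988973 (plus strand), Cxcl11 at chr14:15973629-15973688 (plus strand) and Ltb at chr20:3634055-3634104 (minus strand).
Ccl20: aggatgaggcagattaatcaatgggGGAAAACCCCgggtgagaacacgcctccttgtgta
Cxcl1: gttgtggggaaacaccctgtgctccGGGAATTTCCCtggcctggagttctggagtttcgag
Cxcl2: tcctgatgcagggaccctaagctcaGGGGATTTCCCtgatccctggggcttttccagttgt
Cxcl6: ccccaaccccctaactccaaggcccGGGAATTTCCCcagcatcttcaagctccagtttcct
Cxcl10: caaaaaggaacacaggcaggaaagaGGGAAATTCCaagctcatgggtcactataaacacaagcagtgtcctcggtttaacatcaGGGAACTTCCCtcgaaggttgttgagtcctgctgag
Cxcl11: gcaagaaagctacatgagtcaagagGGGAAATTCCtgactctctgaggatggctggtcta
Ltb: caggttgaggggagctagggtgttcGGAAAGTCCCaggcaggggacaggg
The neutrophil chemokines Cxcl1 and Cxcl6 share the same 11 capital letters, and Cxcl2 differs from them within that run. In Ccl20, Cxcl1, Cxcl2, Cxcl6 and Cxcl11 the match begins between positions -89 and -74 from the start, whereas Cxcl10 has matches farther out, at -187 and -128, and Ltb has one at -25.

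Not every tested gene with a match was called, and differences between these genes were not tested. Cxcl1, which attracts neutrophils, stood at -1.55, -2.07 and -2.55 on the control arrays and at -3.65, -3.98 and -2.46 on the S3d arrays. One S3d array lay within the control range. The difference of -1.31 ± 0.45 just passed (adjusted p = 0.0378), and leaving out control array 1 or 2 or S3d array 1 or 2 lost the call (adjusted p up to 0.109). Cxcl2, its neighbour in the genome and like it a neutrophil chemokine, differed by -0.80 ± 0.40 and was not called (adjusted p = 0.116). Without S3d array 3 it stood at -1.24 and was called (adjusted p = 0.00432). Cxcl10, an interferon-induced chemokine for T cells with Cxcr3, stood between 0.03 and 0.09 on the control arrays and between -0.30 and -0.23 on the S3d arrays. This was a small but separate fall of -0.33 ± 0.06 (adjusted p = 0.00276). Cxcl11, another ligand of Cxcr3, was not called (0.16 ± 0.18).

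Several leukocyte chemokines fell with the epithelial ones. Ccl5, made by cytotoxic T cells and NK cells, stood at 3.40, 3.38 and 3.49 on the control arrays and at 2.52, 2.65 and 2.69 on the S3d arrays, a difference of -0.80 ± 0.07 (adjusted p = 0.000171). Ccl12, Ccl22 and Ccl17 were singled out after their values were seen. Ccl12, a ligand of Ccr2, stood at -1.14, -1.52 and -1.66 against -3.72, -3.63 and -2.54 (-1.86 ± 0.34, adjusted p = 0.00328). Ccl22 and Ccl17, both ligands of Ccr4 and made by dendritic cells, lie side by side in the genome and differed by -1.65 ± 0.28 and -1.38 ± 0.37 (adjusted p = 0.00237 and 0.0152). A second probe of Ccl22 gave -0.11 and was not called, so that fall rests on one probe. Cx3cl1, the chemokine of the same gene neighbourhood, which is outside the rule, was lower as well (-2.01 ± 0.06, adjusted p = 1.04e-05). On the S3d arrays, array 3 had the highest value of Ccl20, Cxcl1, Cxcl2, Ccl12, Ccl17 and Ccl22.

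The chemokine ligands that rose were few and moved little. Cxcl12, the stromal ligand of Cxcr4, stood at 2.82, 2.79 and 2.80 on the control arrays and at 3.23, 3.33 and 3.23 on the S3d arrays. Its rise of 0.46 ± 0.06 (adjusted p = 0.000836) came again on a second probe (0.47). Ccl11, or eotaxin, which attracts eosinophils through Ccr3, rose by 0.47 ± 0.13 (adjusted p = 0.0189) but was lost without control array 1 or S3d array 2 (adjusted p up to 0.0620). The monocyte chemokine Ccl2 (-0.35 ± 0.20) and the mucosal chemokine Ccl28, which attracts plasma cells through Ccr10 (-0.13 ± 0.08), were not called, and their groups overlapped.

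**Figure D2:**
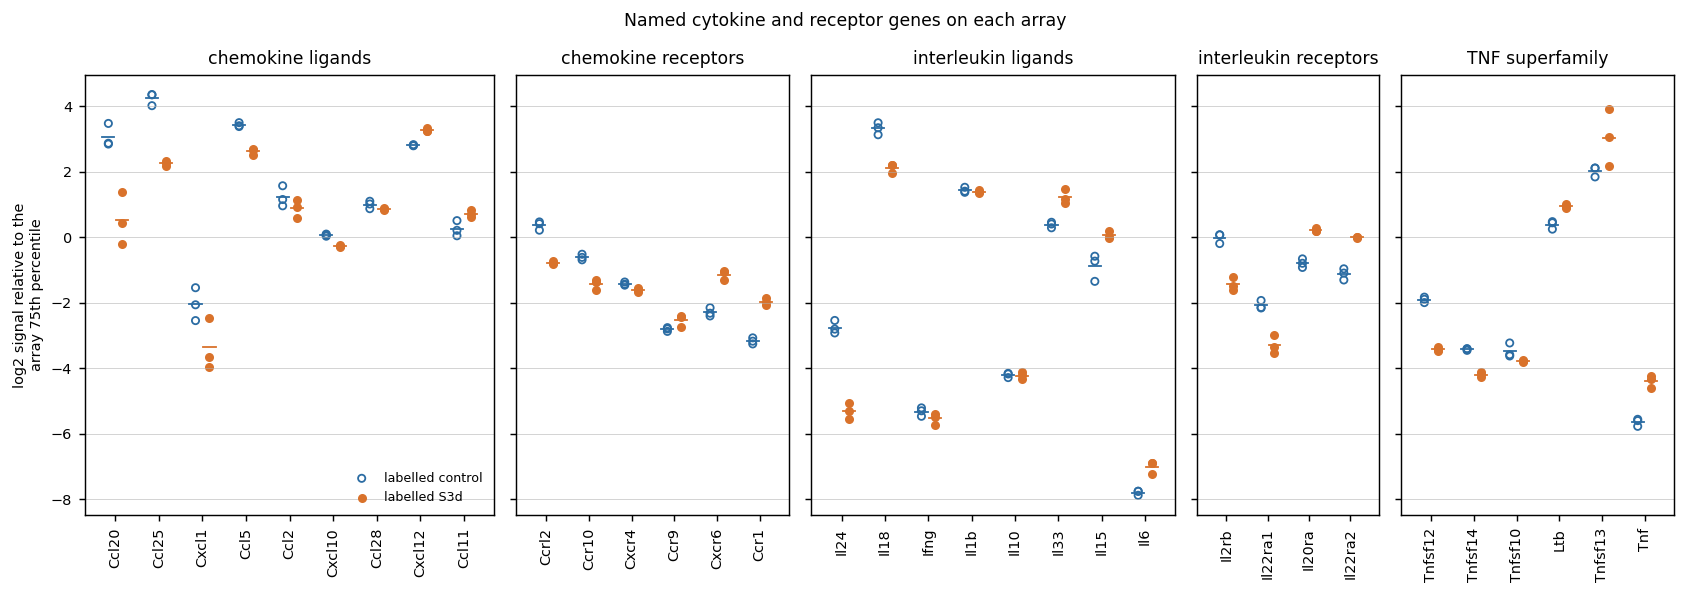
Level of each named gene on every array, as log2 signal relative to the 75th percentile of the array, in panels by role. Open blue circles are the control arrays, filled orange circles the S3d arrays and short lines the group means; Ccl20 on the S3d arrays spreads from -0.21 to 1.39 while Ccl25 lies between 2.18 and 2.32.

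Chemokine receptors changed in both directions, with 6 higher, 5 lower and a median of 0.28 among 15 tested (39.5% of all probes tested were higher and 34.5% lower). The 10 receptors read on all 6 arrays had 4 rises, 4 falls and a median of 0.05. Ccr1, a receptor of monocytes and neutrophils, stood at -3.26, -3.08 and -3.18 on the control arrays and at -2.06, -1.87 and -1.98 on the S3d arrays (1.20 ± 0.08, adjusted p = 5.65e-05). Cxcr6, found on tissue-resident T cells, stood at -2.16, -2.41 and -2.32 against -1.32, -1.07 and -1.04 (1.15 ± 0.11, adjusted p = 0.000188). These rises were 2.30-fold and 2.23-fold, and the groups were well apart. Ccrl2, an atypical receptor that binds chemerin, fell from 0.41, 0.21 and 0.46 to -0.79, -0.83 and -0.73 (-1.14 ± 0.09, adjusted p = 7.91e-05). Ccr10, the receptor of IgA plasma cells for Ccl28, differed by -0.83 ± 0.10 (adjusted p = 0.000591).

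The gut-homing receptor Ccr9 stood at -2.88, -2.80 and -2.76 on the control arrays and at -2.75, -2.44 and -2.40 on the S3d arrays. The groups did not overlap, yet the difference of 0.28 ± 0.11 missed the threshold (adjusted p = 0.0548), and with normexp background correction it was -0.01. Without S3d array 1 it was called, at 0.39 (adjusted p = 0.00533). Cxcr4 differed by -0.19 ± 0.06 (adjusted p = 0.0381) on its brightest probe. Leaving out any one array lost that call (adjusted p 0.0548 to 0.0973), and a second probe gave 0.34 with the opposite sign (adjusted p = 0.0208), so Cxcr4 has no settled direction.

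Ccr1, Cxcr6 and Ccr9 lie in the same stretch of the RefSeq gene order as Ccr3 and Ccr1l1, which were named after their values were seen. Among them Ccr1 differed by 1.20 and Ccr3 by -1.85, so these neighbours did not move together. Ccr1l1, a rodent relative of Ccr1, was not well above background on any control array (-8.03 to -6.87) and clearly above it on all S3d arrays (-3.73 to -3.33). It was at least 5.23-fold higher on the S3d arrays. This bound sets the S3d mean against the lowest signal that counted as well above background on each control array. Ccr1l1 passed the filter through the S3d arrays alone, so its direction was set by the filter. Ccr3, the eotaxin receptor of eosinophils and mast cells, stood at -3.89, -4.21 and -4.03 on the control arrays and at -5.79, -6.02 and -5.87 on the S3d arrays, of which 1 was well above background. Its difference was -1.85 ± 0.11 (adjusted p = 3.40e-05), and it passed the filter through the control arrays alone.

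Among the interleukins, Il18 and Il24 fell and Il15 and Il33 rose on probes read on all arrays. Of 20 tested, 7 were higher, 3 were lower, and the median was 0.24 (39.5% and 34.5% of all probes tested were higher and lower). Of these rises, Il3, Il4, Il13 and Il36rn passed the filter through the S3d arrays alone. The 14 interleukins read on all 6 arrays had 3 rises, 2 falls and a median of -0.0089. Il18, which epithelial cells hold as a precursor until it is cleaved, stood at 3.34, 3.13 and 3.49 on the control arrays and at 1.96, 2.19 and 2.22 on the S3d arrays. Every S3d array lay more than 1 log2 unit below the control mean (-1.20 ± 0.12, adjusted p = 0.000261). Il18bp, which binds and blocks Il18, differed by -0.39 ± 0.13 (adjusted p = 0.0370), a call lost without control array 1 or 2 or S3d array 1 or 2 (adjusted p up to 0.109). Il24, an Il10 family cytokine that acts on epithelium, stood at -2.54, -2.81 and -2.93 against -5.07, -5.32 and -5.56. It fell 5.88-fold (-2.56 ± 0.16, adjusted p = 4.00e-05), the largest fall among members read on all arrays with this scaling.

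Il15 and Il33 rose. Il15, which keeps intraepithelial lymphocytes and NK cells alive, stood at -1.35, -0.73 and -0.58 on the control arrays and at -0.04, 0.17 and 0.01 on the S3d arrays (0.94 ± 0.21, adjusted p = 0.00690). Il33, an alarmin of nuclei that acts on mast cells and innate lymphoid cells, stood at 0.40, 0.45 and 0.28 against 1.48, 1.15 and 1.03 (0.84 ± 0.13, adjusted p = 0.00140). Its groups lay apart, and a second probe also rose, by 0.23 (adjusted p = 0.0184). Il16, a chemoattractant for CD4 cells named after its values were seen, rose by 0.75 ± 0.08 (adjusted p = 0.000323).

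Il1b, Il10 and Ifng were not called with this scaling. Il1b, the inflammasome product, stood at 1.52, 1.37 and 1.40 on the control arrays and at 1.43, 1.35 and 1.38 on the S3d arrays. The groups overlapped, the difference was -0.04 with an interval from -0.21 to 0.13, and a second probe gave 0.20 (adjusted p = 0.0713). Il10, which restrains inflammation, differed by -0.02 ± 0.08 and Ifng, the T cell and NK cell interferon, by -0.20 ± 0.12, both dim and not called. With quantile normalization both were called lower, at -0.41 (adjusted p = 0.00824) and -0.88 (adjusted p = 0.00196).

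Cytokines of type 2 and type 17 T cells sat at the edge of detection. Il17a, the neutrophil-recruiting cytokine of Th17 cells, was well above background on all control arrays (-5.33, -5.18 and -5.84) and on no S3d array (-8.29, -8.79 and -8.32). It was thus at least 1.72-fold higher on the control arrays, and it is the single member with this pattern. In the other direction, Il3, a growth factor of mast cells, was not well above background on any control array. It was at least 3.50-fold higher on the S3d arrays. Il17a and Il3 each passed the filter only through the group where they were high. Il4 and Il13, neighbours in the genome that drive type 2 responses, rose by 1.91 ± 0.49 (adjusted p = 0.0132) and 1.14 ± 0.26 (adjusted p = 0.00829), where 2 and 1 of the control arrays were well above background. With quantile normalization these stood at 1.28 and 0.65, and Il13 was no longer called (adjusted p = 0.0662). Il36rn, which blocks Il36 signalling, was at least 1.67-fold higher on the S3d arrays, but its call was lost with quantile normalization (adjusted p = 0.117) and without S3d array 1, where its adjusted p lay just past the threshold. These genes were chosen after their values were seen. Normexp correction drew such dim probes toward 0, among them Il17a to -0.46, Ccr1l1 to 0.81, Ccr3 to -0.60 and Il24 to -1.19.

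**Figure D3:**
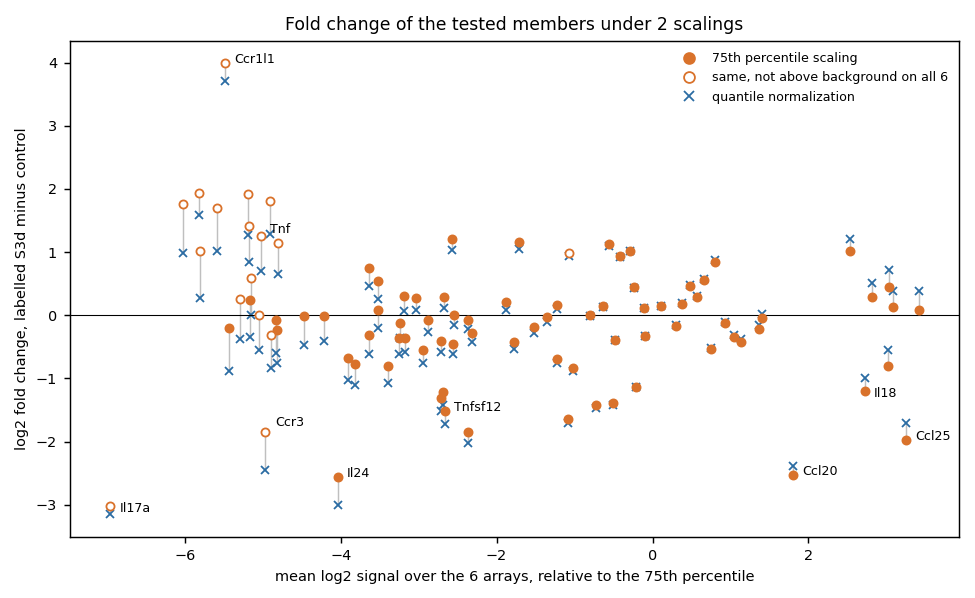
Log2 fold change (S3d minus control arrays) of 92 of the 93 tested members against their mean level over the 6 arrays. Circles use the 75th percentile, open where a member was not well above background on all 6 arrays, and crosses use quantile normalization; dim members shift down under quantile normalization, as Tnf does from 1.25 to 0.69, and bright members shift up.

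Of 23 tested interleukin receptors, 5 were higher and 5 lower (39.5% and 34.5% of all probes tested were), with a median of 0.08. The 20 read on all 6 arrays had 2 rises, both described here, 5 falls and a median of -0.02. Il22ra1, the epithelial chain through which Il22 and Il24 signal, stood at -2.15, -2.16 and -1.93 on the control arrays and at -2.99, -3.53 and -3.37 on the S3d arrays (-1.21 ± 0.15, adjusted p = 0.000656). Il22ra2, a soluble decoy that binds Il22, stood at -1.10, -1.31 and -0.97 against 0.01, -0.02 and 0.01 (1.13 ± 0.10, adjusted p = 0.000136). The signalling chain was thus lower and the decoy higher, each without overlap. Il20ra, a chain of the Il24 receptor and the genomic neighbour of Il22ra2, rose likewise, from -0.93, -0.80 and -0.66 to 0.18, 0.28 and 0.19 (1.01 ± 0.09, adjusted p = 0.000124).

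Il2rb, the chain through which T cells and NK cells receive Il2 and Il15, stood at 0.07, -0.20 and 0.07 on the control arrays and at -1.61, -1.48 and -1.23 on the S3d arrays. This 2.68-fold fall (-1.42 ± 0.13, adjusted p = 0.000159) was the largest among the interleukin receptors. Il17re, the epithelial receptor of Il17c, was lower by a smaller step (-0.54 ± 0.07, adjusted p = 0.000680), and Il17rb, a receptor of Il25, was at least 2.20-fold higher on the S3d arrays. Il17rb was not well above background on any control array, and with normexp correction its difference was 0.06 and not called.

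For some receptors, probes of one gene disagreed. Il1rl1, the receptor of Il33, gave 0.98 ± 0.23 on its brightest probe (adjusted p = 0.0131, fitted without S3d array 2, and 0.0658 without S3d array 1) and -0.70 on the other (adjusted p = 0.00331). Il6st, the shared signalling chain of the Il6 family, gave 0.13, 1.16 and -1.60 on its 3 probes, and Il13ra1 gave 0.09, 0.72, -1.19 and -1.63 on its 4. Il7r, the receptor that keeps lymphocytes alive, gave -0.07 on the brightest probe and -0.61 and -1.46 on the others, both called. In all, 9 of 19 other tested probes of the members had the opposite sign to the brightest probe, in 8 genes (Ccl7, Cxcr4, Il13ra1, Il17ra, Il1b, Il1rl1, Il1rn and Il6st). For these genes no direction is settled.

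Of 9 tested TNF superfamily ligands, 3 were higher and 3 lower, near the shares of all probes tested (39.5% and 34.5%), with a median of 0.25. Among these rises Tnf and Tnfsf15 passed the filter through the S3d arrays alone, and the 7 ligands read on all 6 arrays had 1 rise, 3 falls and a median of -0.31. Tnf itself, a product of macrophages and mast cells, stood at -5.78, -5.60 and -5.56 on the control arrays, of which 2 were well above background, and at -4.32, -4.62 and -4.25 on the S3d arrays. The groups were apart and the difference was 1.25 ± 0.12 (adjusted p = 0.000200), but the probe was dim, and the rise was 0.69 with quantile normalization and 0.25 with normexp correction. Ltb, which lies beside Tnf in the genome and builds lymphoid tissue, was bright and rose from 0.44, 0.24 and 0.47 to 0.92, 0.90 and 1.02 (0.56 ± 0.09, adjusted p = 0.00142). Lta, the third gene of that locus, was not well above background on any array.

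Tnfsf12, or TWEAK, which acts on epithelium and vessels, fell from -1.91 ± 0.08 to -3.42 ± 0.07 (mean ± SD, n = 3 arrays each; -1.51 ± 0.08, adjusted p = 2.18e-05). Tnfsf14, or LIGHT, which activates T cells, fell from -3.41, -3.46 and -3.41 to -4.28, -4.13 and -4.19 (-0.77 ± 0.07, adjusted p = 0.000128). Both pairs of groups lay far apart relative to their spread. Tnfsf13, or APRIL, which supports plasma cells and lies beside Tnfsf12, stood at 2.11, 1.84 and 2.11 against 3.90, 3.05 and 2.16. Its S3d arrays spread so widely that the difference of 1.02 ± 0.42 was not called (adjusted p = 0.0685), and it was 1.46 without S3d array 3 (called, adjusted p = 0.00654) and 0.59 without S3d array 1. It was called with quantile normalization (1.21, adjusted p = 0.0489) and with normexp correction (1.12, adjusted p = 0.0297). Tnfsf10, or TRAIL, a death ligand, gave -0.31 ± 0.12 (adjusted p = 0.0548), and -0.38 without control array 1 (called, adjusted p = 0.0407). It too was called with quantile normalization (-0.61, adjusted p = 0.00294) and with normexp correction (-0.20). Tnfsf15, an activator of T cells made by endothelium, was at least 1.48-fold higher on the S3d arrays, but its call was lost with quantile normalization (adjusted p = 0.225).

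Ligands and their receptors moved both apart and together. Of 20 textbook pairs among the tested members, both partners were called in 10, and in 6 of these they went opposite ways. Of all probes tested, 74% were called, 39.5% higher and 34.5% lower, so these counts are not read as a result about the pairs. Ccl20 fell while its receptor Ccr6 was at 0.54 ± 0.19 (adjusted p = 0.0374, lost without control array 1 or 3 or S3d array 2 or 3, adjusted p up to 0.108), and with quantile normalization Ccr6 was at 0.26 and not called (adjusted p = 0.257). Ccl11 rose while Ccr3 fell, Ccl21 fell while Ccr7 (1.42 ± 0.29) rose, Cxcl12 rose while Cxcr4 fell on its brightest probe, Il15 rose while Il2rb fell, and Il24 fell while Il20ra rose. Ccr3 passed the filter through the control arrays alone and Ccr7 through the S3d arrays alone, so these directions were set by the filter. Ccr7 was well above background on 1 control array, stood at 0.84 with quantile normalization and was not called with normexp correction (0.17, adjusted p = 0.103). The direction of Cxcr4 is not settled. The 4 pairs that went the same way were Il24 with Il22ra1, Cxcl10 with Cxcr3 (-0.41 ± 0.07, adjusted p = 0.00320), Il18 with Il18bp, and Il33 with the brightest probe of Il1rl1. The partners come from the same arrays, and no test of the pairs was made.

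**Figure D4:**
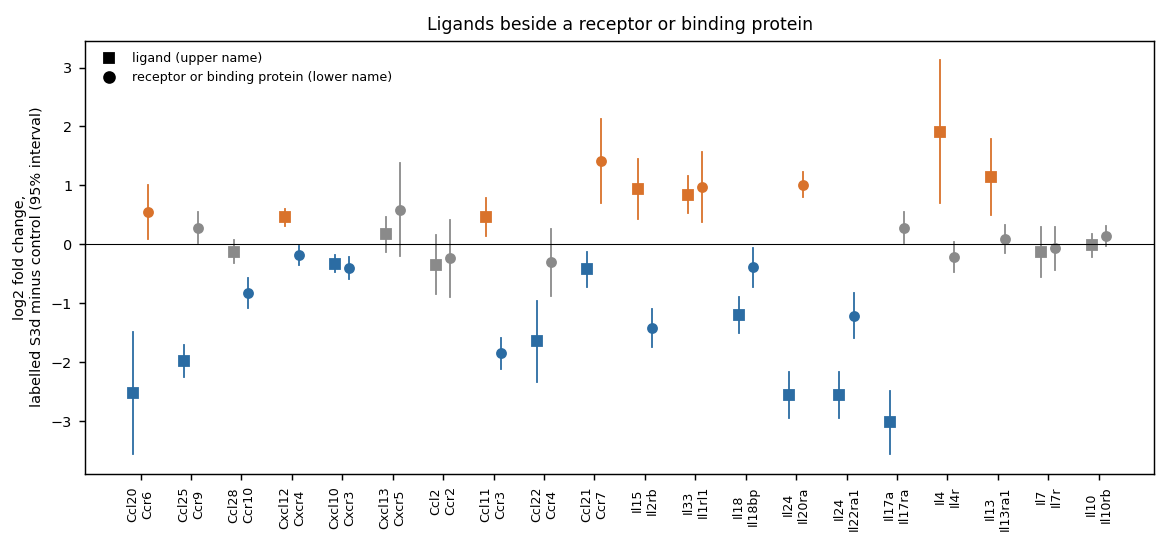
Log2 fold change (S3d minus control arrays) with its 95% interval of the ligand (squares) and of the receptor or binding protein (circles) in 20 pairs. Orange was called higher, blue called lower and grey not called; the square and circle lie on opposite sides of 0 for Ccl20 and Ccr6 and for Il15 and Il2rb.

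Among the signalling genes below these receptors, those of the JAK-STAT pathway were mostly lower. Of 17 tested genes of the JAK-STAT pathway, 11 were lower and 3 higher (34.5% and 39.5% of all probes tested were), with a median of -0.68. That median was -0.36 with quantile normalization and -0.39 with normexp correction. The feedback inhibitors Socs1 (-2.19 ± 0.12, adjusted p = 2.95e-05) and Socs3 (-2.21 ± 0.18, adjusted p = 0.000103), which cytokine signals induce, fell most, and the kinase Jak1 fell by 1.63 on the log2 scale (adjusted p = 6.04e-05). Cish, another feedback inhibitor, rose instead (1.29 ± 0.25, adjusted p = 0.00428). On the route from Tnf and Il1 to NF-kappaB, 21 of 30 chosen genes were matched to a probe. Of 20 tested, 10 were lower and 3 higher (34.5% and 39.5% of all probes tested were), with a median of -0.19. Nfkbia, the inhibitor that NF-kappaB itself induces, differed by -1.24 ± 0.11 (adjusted p = 0.000140), the subunit Rela by -0.99 ± 0.08 (adjusted p = 0.000115), and the adaptor Myd88 by 0.82 ± 0.07 (adjusted p = 0.000145). Of 13 further ligands and receptors outside the rule, 4 were higher and 4 lower.

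Markers of cell types moved alongside the cytokines. Of 11 tested T and NK cell genes, 8 were lower and 3 higher (34.5% and 39.5% of all probes tested were). Their summed level (signal relative to the 75th percentile), led by Cd3g, was 32.7 to 40.5 on the control arrays and 21.4 to 25.7 on the S3d arrays. The rises were Lck (1.32), Cd2 (0.42) and Cd247 (0.43). Beside these, Ccl5, Il2rb and Cxcr3 fell and Cxcr6 rose. Of 4 tested B and plasma cell genes, 3 were lower (summed level 7.16 to 8.56 against 3.89 to 5.05), beside the fall of Ccr10. Mast cell genes had 3 rises and 1 fall of 6 (18.5 to 20.8 against 20.4 to 21.0, a sum led by Mcpt1, which was not called at -0.05). Tpsb2 among the rises passed the filter through the S3d arrays alone. Of 4 tested neutrophil genes, S100a8, Csf3r and Elane were higher but likewise passed through the S3d arrays alone, so their direction was set by the filter. S100a9, read on all 6 arrays, fell by 2.29 on the log2 scale, and the summed level of the neutrophil genes, which it leads, was 0.446 to 0.963 on the control arrays and 0.221 to 0.270 on the S3d arrays. Macrophage and dendritic cell genes had 2 rises and 3 falls of 9 (70.6 to 72.5 against 63.9 to 68.1, a sum led by Lyz2, which was not called at -0.08). Smooth muscle and endothelial genes each had 1 rise and 2 falls of 5. The part of any of these in the cytokine values was not tested.

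Epithelial markers fell with Ccl25, Ccl20 and Il18, but their fall depended on the scaling. Of 10 tested, 8 were lower and 1 higher, with summed levels of 3517 to 3875 on the control arrays and 1551 to 1600 on the S3d arrays and a median of -0.67. With quantile normalization that median was 0.12. Ccl25, Ccl20 and Il18 stayed lower with quantile normalization, at -1.71, -2.39 and -0.99.

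**Figure D5:**
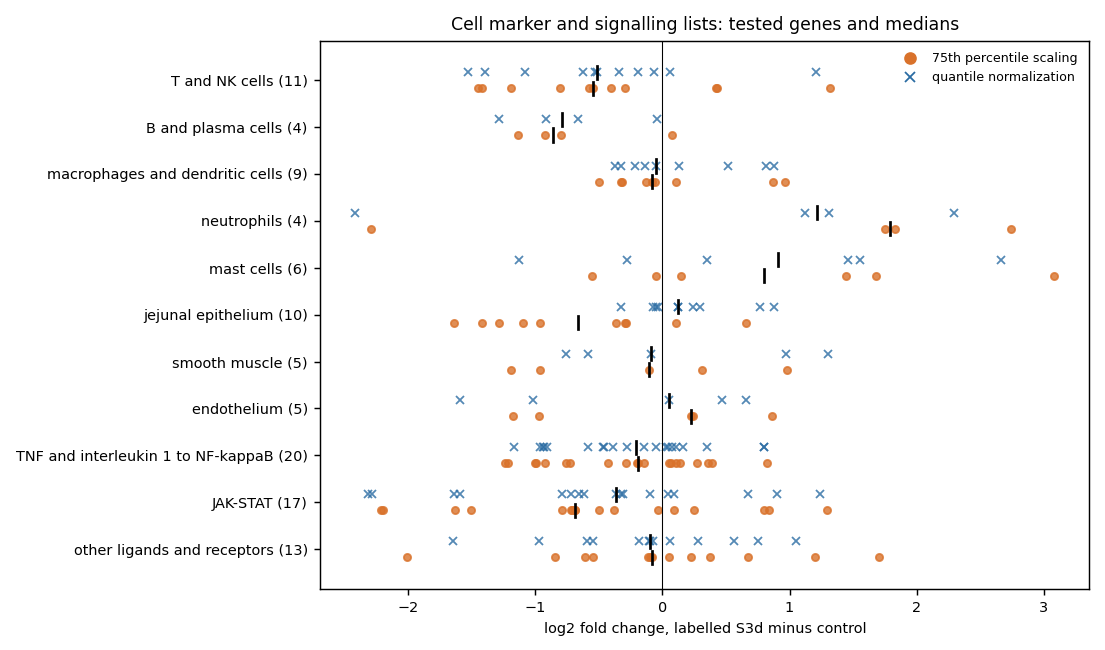
Log2 fold change (S3d minus control arrays) of the tested genes of 8 cell type marker lists and 3 lists of signalling genes, with the number of genes in brackets and each median as a black bar. Orange circles use the 75th percentile and blue crosses quantile normalization; the epithelial median moves from -0.67 to 0.12 between them, while the T and NK cell median stays near -0.5.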

How the data were processed

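The authors deposited the Agilent Feature Extraction output of 6 one-colour arrays (version 10.7 per the labels). Its processed signal is a spot intensity from which background had been subtracted, with no scaling across arrays. The authors also deposited a table of log2 values, quantile-normalized across its 6 columns by a tool not given in the sources used here. From the scanner files, control spots and outlier spots were dropped, repeated spots averaged, and each log2 intensity set against the 75th percentile of its array. A probe entered the test if every array of either group had it well above background (31367 of 41012 probes did). Groups were compared by limma (lmFit, eBayes; version 3.58.1, R 4.3.3), tested first on simulated data, with Benjamini-Hochberg adjustment over all of those probes. Tables were joined in Python 3.11.15 (pandas 2.3.3, numpy 2.4.6, scipy 1.17.1). RefSeq accessions named 17512 probes, of which 135 belong to the set. The number of arrays limits the precision.

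In each role the 2 largest rises and 2 largest falls among called members read on all 6 arrays without overlap were named, plus a panel of 21 cytokine genes, of which Tnfsf13b was not matched, and other genes were named after their values were seen. The members, the panel, the pairs, the motifs and the lists were chosen with earlier results of these data known. Alternatives were other scalings (quantile, median centring, none), normexp (offset 50, on the median signal, then quantile), both other filters, outlier spots kept, the deposited table, an intensity trend, a one-way analysis of variance per probe, as in the study's methods, the mean over probes, other thresholds, the replicate number as a block, and each array left out. The study's paper gives 6 rats per group where the labels give 10. Its single-day stress group was not used here, and 1 tested member is not reported by name or drawn.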

Additional observations from a re-analysis of the deposited data

How the results depend on the processing

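Of the members called, the count was 43 to 61 under the scalings, filters and tests tried, 36 with a minimum fold change of 1.5 besides, and 33 with the unadjusted p and fold change threshold of the study. Reading on all 6 arrays as the filter left 15 members higher (24 with the main filter), since dim members dropped out. The median fold change of the members moved to -0.20 with quantile normalization. Without scaling the median of all probes was 1.93, and with median centring -0.12, so values there were taken relative to that shift. None of the 63 genes followed through the alternatives turned its sign there. Il1b turned to 0.022 with quantile normalization, and with normexp Il1b (0.051), Ccr9 (-0.012) and Tnfsf15 (-0.053) turned. The mean over the probes of a gene turned Cxcr4 (0.077), Il1b (0.079), Il1rl1 (-0.64) and Il13ra1 (-0.50). Leaving out 1 array gave 44 to 52 called members, 21 to 25 higher and 23 to 29 lower, and a median of -0.04 to 0.03. It turned values near 0 in Il10 (-0.073 to 0.037), Il1b (-0.073 to 0.0036) and Il7r (-0.16 to 0.078). Of 51 called genes that were followed through the alternatives, 44 kept their call without any 1 array. Ccl11, Ccr6, Cxcl1, Cxcr4, Il18bp, Il1rl1 and Il36rn did not. Ccl21 and the cell type markers were not followed.

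Same-numbered arrays of the groups did not deviate together (r 0.02, 0.02 and -0.05), and not every array correlated best with its own number, so the numbers do not pair the samples. With the replicate number as a block 48 members were called, 25 higher and 23 lower.

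In the normalized table deposited by the authors, read by its own labels, 38 members were higher and 21 lower, with a median of 0.16, and 62 of the 63 genes followed had the opposite sign, Il1b excepted. Its log2 differences (S3d minus control) were below 0 for Ccr1l1 -3.70, Il3 -1.27, Il4 -1.27, Cish -1.23, Tnfsf13 -1.22, Il22ra2 -1.10, Il1rl1 -1.09, Cxcr6 -1.05, Ccr1 -1.02, Il20ra -1.02, Il17rb -1.003, Il36rn -0.98, Il15 -0.93, Il33 -0.87, Ccr7 -0.83, Myd88 -0.80, Cxcl12 -0.72, Tnf -0.68, Il13 -0.64, Ltb -0.58, Ccl11 -0.48, Il16 -0.45, Il13ra1 -0.40, Il6st -0.39, Tnfsf15 -0.27, Ccr6 -0.25 and Ccr9 -0.11. They were above 0 for Ccl28 0.11, Il7r 0.27, Cxcr4 0.29, Ccl2 0.31, Cxcl10 0.33, Il18bp 0.39, Il10 0.43, Il17re 0.52, Ccl5 0.55, Cxcr3 0.59, Tnfsf10 0.62, Ccr10 0.88, Ifng 0.89, Nfkbia 0.92, Rela 0.93, Il18 0.98, Cxcl2 1.08, Tnfsf14 1.12, Ccrl2 1.14, Ccl17 1.42, Il22ra1 1.42, Il2rb 1.47, Cxcl1 1.52, Jak1 1.59, Cx3cl1 1.64, Ccl25 1.71, Ccl22 1.71, Tnfsf12 1.72, Ccl12 2.03, Socs3 2.28, Socs1 2.32, Ccl20 2.38, Ccr3 2.46, Il24 3.01 and Il17a 3.15. The cause was not tested. Dim probes limit what can be said of Tnf, Il3, Il4, Il13, Il17a and Ccr1l1, which stand near the background of at least 1 group.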
